A study of Caenorhabditis elegans with 8 samples.

Results

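Transcripts of 4 gene families were compared between ercc-1 mutant and wild type N2 cultures of the nematode Caenorhabditis elegans. Some of their members act in early cell fate decisions. The families were 19 hlh genes of the basic helix-loop-helix (bHLH) class, 17 tbx genes of the T-box class, 8 GATA-type genes named elt, end and med, and 32 sdz genes. Members were taken by symbol from the platform annotation, using probe sets assigned to a single gene, and the probe set with the highest mean over the 8 arrays stood for its gene. This gave 76 of the 17118 genes measured, read by 86 probe sets in all. A further 13 genes with such symbols had no probe set of their own, among them elt-4, med-2, hlh-17, hlh-25, hlh-27 to hlh-29, hlh-32, tbx-30 and tbx-42.

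The ercc-1 mutant group held 4 arrays of worms labelled as deficient in nucleotide excision repair, in an N2 background and with no allele named in the labels. The wild type N2 group held 4 arrays of the standard laboratory strain. Both groups were mixed-stage cultures that fed on Escherichia coli HT115(DE3) with the plasmid pL4440 over 3 to 4 days. ERCC-1 is a subunit of the nuclease that incises damaged DNA in nucleotide excision repair. RNA came from whole animals of all stages, so fewer cells of a type and less RNA per cell cannot be told apart. The labels do not say whether replicates were separate cultures, and p-values measure the spread between these arrays, which may be technical.

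In the early embryo, the maternal factor SKN-1 switches on the GATA genes med-1 and med-2, which set the fate of the lineage that makes mesoderm and gut. The GATA genes end-1 and end-3 then commit the gut precursor, and elt-2 and elt-7 take over and maintain intestinal transcription in larvae and adults. T-box factors act in pharynx, muscle and body shape, bHLH factors in muscle, neurons, glands and metabolism, and the sdz genes were named as zygotic transcripts that depend on SKN-1. Many of these genes act for a short time in a few cells of the embryo.

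Array medians ran from 7.44 to 7.59 on mutant arrays and from 7.39 to 7.44 on wild-type arrays (log2 units). Correlations between arrays were lowest between mutant replicates 1 and 4 (r = 0.978 across probe sets) and highest between wild-type replicates 2 and 4 (r = 0.996). The ercc-1 probe set itself read 9.84 ± 0.074 in mutant cultures and 9.85 ± 0.124 in wild-type cultures (SD, n = 4 each). Its position in the gene is not known here, so it does not check the labels. No detection call was used, and 29 of the 76 genes had a mean below 6.42, the 25th percentile of all probe sets, against 24.9% of all genes.

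None of the 76 genes passed the test. In limma's moderated test, adjusted over all 22548 probe sets, 0 of 76 had an adjusted p under 0.05, against 0.672% of all genes (0.532% higher and 0.14% lower in the mutant). At an unadjusted p under 0.05 there were 4 members, against 10.5% of all genes. Of these, elt-7, tbx-32 and sdz-35 had higher mutant means (8.27% of all genes) and sdz-33 a lower one (2.24% of all genes). Only elt-7 had mutant and wild-type values that did not overlap, against 6.88% of all genes (5.01% with the mutant higher and 1.87% with it lower). The count of 0 held in each of the 16 alternatives, of which those without dim or suffix-marked probe sets covered 47 and 69 members. Among them the smallest adjusted p of any member lay between 0.0909 and 0.38.

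The differences were also small. Of the 76 genes, 73 differed by less than 0.3 on the log2 scale and 45 by less than 0.1. Of all 17118 genes, 15871 and 9574 did so, and small differences were thus not particular to these families. The 95% interval of the difference lay within -1 and 1, a 2-fold change in either direction, for 75 of the 76 genes and for 98.2% of all genes. It lay within -0.5 and 0.5 for 62 of the 76 and for 83.8% of all genes. The exception to the wider bound was tbx-32. These intervals are for single genes and were not widened for the number of genes.

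**Figure D1:**
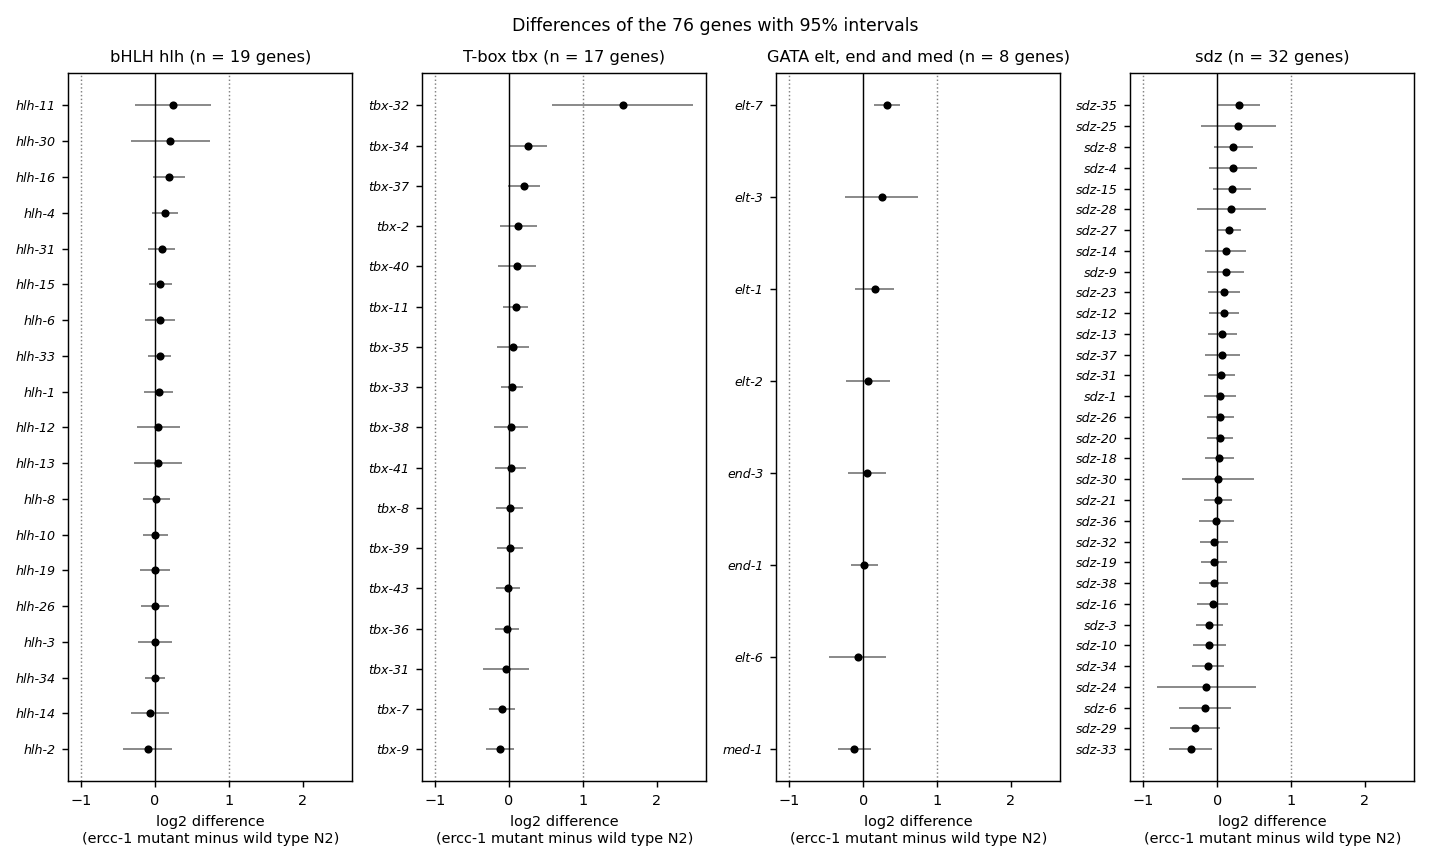
Log2 difference (ercc-1 mutant minus wild type N2, x axis) of each of the 76 genes, by family, with lines for the 95% interval of limma's fit (n = 4 arrays per group) and dotted lines at -1 and 1. All points except tbx-32 lie between -0.36 and 0.33, and the intervals of 75 genes stay within the dotted lines.

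Median differences were 0.045 for the hlh genes, 0.023 for the tbx genes, 0.059 for the GATA genes and 0.040 for the sdz genes, beside 0.03 over all genes. A positive difference was seen in 13 of 19 hlh, 12 of 17 tbx, 6 of 8 GATA and 20 of 32 sdz genes, beside 59.4% of all genes. The sign of such small values depends on the scaling. Setting all array medians equal lowered every difference by 0.09, and 23 of the 76 genes then lay above wild type, beside 32.6% of all genes.

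The GATA genes of gut specification were measured at like levels in both groups. The med-1 probe set read 5.24, 5.45, 4.95 and 5.15 on mutant arrays, against 5.33, 5.32, 5.3 and 5.31 on wild-type arrays (log2 values, replicates 1 to 4 here and below). The mutant values lay on both sides of the tightly grouped wild-type values, and both groups lay below the bound for dim probe sets. The difference was -0.12 (SE 0.101, adjusted p = 0.782), with a range of -0.202 to -0.035 when 1 mutant array was left out.

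For end-1 the mutant values were 7.57, 7.72, 7.58 and 7.37, against 7.5, 7.55, 7.58 and 7.54 in wild type. Those of end-3 were 7.43, 7.48, 7.58 and 7.92, against 7.49, 7.47, 7.72 and 7.52. Both genes encode redundant GATA factors that start the endoderm programme, and in both the groups overlapped over most of their range. The 95% intervals were -0.17 to 0.20 for end-1 and -0.20 to 0.31 for end-3 (adjusted p = 0.973 and 0.934).

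The transcript of elt-7, on chromosome V, gave the smallest p of the 76. This gene encodes an intestinal GATA factor that shares functions with ELT-2. Its values were 8.75, 8.48, 8.51 and 8.52 on mutant arrays, against 8.27, 8.28, 8.22 and 8.19 on wild-type arrays. Every mutant array thus read above every wild-type array, and mutant replicate 1 stood highest. The mean was 8.56 ± 0.124 in the mutant, against 8.24 ± 0.042 in wild type (SD, n = 4 each), and the mutant level was 1.25-fold higher. The log2 difference of 0.325 (SE 0.078, 95% interval 0.15 to 0.50) did not pass after adjustment (limma, unadjusted p = 0.00215, adjusted p = 0.141). Adjusted p ranged from 0.116 to 0.38 over the alternatives, and the difference from 0.235 after median centring to 0.353 without mutant replicate 2.

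The paralogue elt-2, the main regulator of intestinal genes, read 8.84, 8.39, 8.2 and 8.38 on mutant arrays, against 8.48, 8.44, 8.4 and 8.23 on wild-type arrays. Only mutant replicate 1 stood above the wild-type values. The difference was 0.065 (SE 0.131, adjusted p = 0.927), and -0.064 without that array. A second elt-2 probe set gave 0.05 (adjusted p = 0.926). None of 12 genes of intestinal differentiation passed, and their median difference was -0.004. The 2 with the smallest p were the proteases asp-1 (0.15, adjusted p = 0.509) and cpr-1 (0.495, adjusted p = 0.521). All mutant values of asp-1 lay above those of wild type, as for 5.01% of all genes. In 1 other gene of the list they all lay below, as for 1.87% of all genes.

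Among the epidermal GATA genes, elt-1, which specifies epidermis, read 8.9, 8.88, 8.65 and 9.1 on mutant arrays, against 8.48, 8.71, 8.87 and 8.85 on wild-type arrays. Its groups overlapped, with a difference of 0.155 (SE 0.118, adjusted p = 0.749), or 0.073 without wild-type replicate 1. Other transcripts may also bind the elt-1 probe set, by its _s_at suffix. The values of elt-3, which acts in differentiated epidermis, were 9.55, 9.22, 8.67 and 8.38 in the mutant, against 8.65, 8.79, 8.63 and 8.75 in wild type. Mutant replicates 1 and 2 lay above all wild-type values and replicate 4 below them, so the mean difference of 0.25 was close to its SE of 0.22 (adjusted p = 0.792). Leaving out mutant replicate 1 gave 0.052, and leaving out replicate 4 gave 0.442. A second elt-3 probe set gave 0.225 (adjusted p = 0.761). For elt-6, a seam and epidermal factor, the mutant values were 8.47, 8.21, 7.97 and 7.59, against 8.32, 8.15, 7.99 and 8.08. They spread on both sides of wild type (-0.075, adjusted p = 0.937), and the other elt-6 probe set had the opposite sign (0.073, adjusted p = 0.819).

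**Figure D2:**
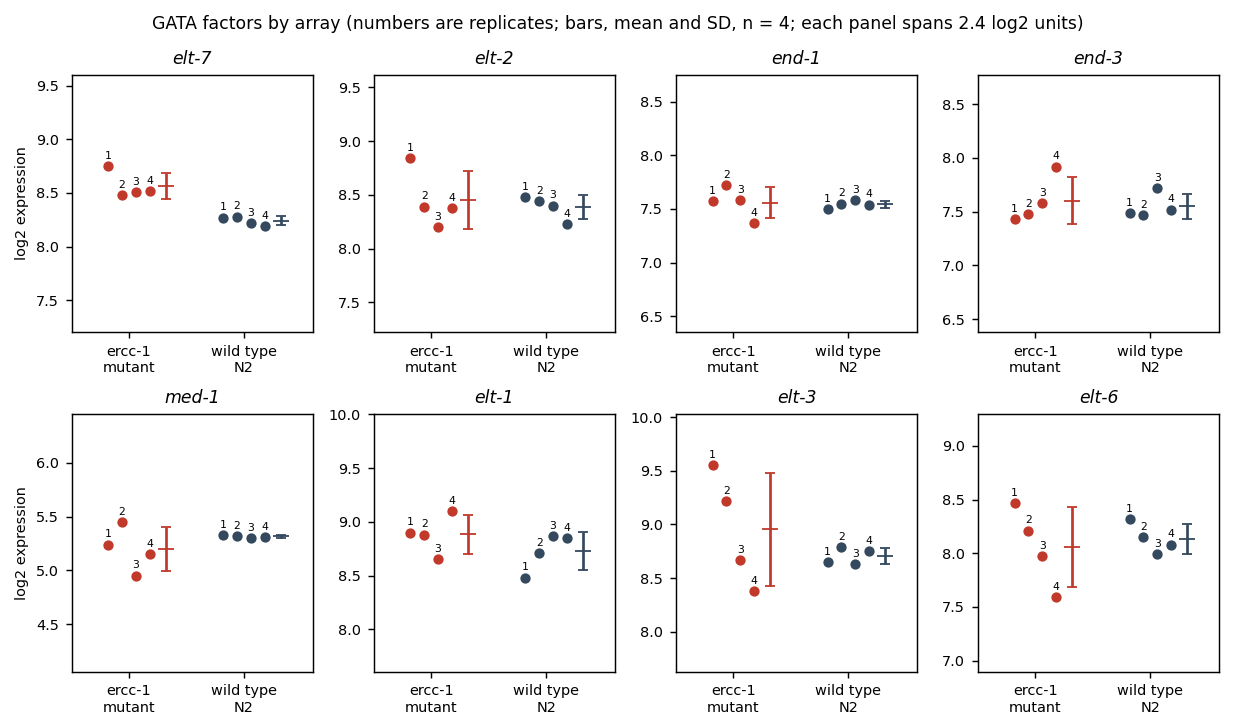
Log2 expression (y axis) of the 8 GATA genes on each array, with ercc-1 mutant arrays left of wild type N2 arrays, replicate numbers at the points, and mean ± SD (n = 4) as bars. The values of elt-7 separate by group, those of the other 7 genes overlap, and elt-3 spans 1.17 in the mutant group, against 0.16 in the wild-type group.

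T-box genes with known roles in mesoderm and pharynx stayed within 0.21 of wild type. The gene tbx-37, which acts with tbx-38 to give the mesodermal fate of anterior blastomere descendants, read 7.52, 7.48, 7.3 and 7.36 on mutant arrays, against 7.18, 7.04, 7.43 and 7.19 on wild-type arrays. Wild-type replicate 3 lay among the mutant values and the other wild-type arrays below all of them. The difference was 0.205 (SE 0.096, adjusted p = 0.532). For tbx-38 it was 0.023 (adjusted p = 0.972).

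The tbx-35 gene, a target of the MED factors that specifies the mesodermal sister of the gut precursor, differed by 0.053 (adjusted p = 0.92). Its probe set lay below the bound for dim probe sets. For tbx-8 and tbx-9, which overlap in body morphogenesis, the differences were 0.01 and -0.12 (adjusted p = 0.985 and 0.725). The tbx-9 probe set has an _s_at suffix, so other transcripts may bind it too. The values of tbx-2, needed for pharyngeal muscle, were 8.6, 8.34, 8.16 and 8.14 in the mutant, against 8.19, 8.12, 8.11 and 8.32 in wild type. Only mutant replicates 1 and 2 exceeded every wild-type array, and the difference was 0.125 (adjusted p = 0.79), or 0.028 without mutant replicate 1. A second tbx-2 probe set gave 0.078 (adjusted p = 0.958). There only mutant replicate 1 exceeded every wild-type array, and replicate 4 lay below every one.

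The remaining T-box genes belong mostly to branches of the family that have diverged in nematodes. The largest difference of all 76 genes was that of tbx-32, at the bottom of the scale. Its probe set read 2.51, 1.32, 2.66 and 3.15 on mutant arrays, against 1.88, 0.33, 0.88 and 0.4 on wild-type arrays. Mutant replicate 2 lay below wild-type replicate 1, and the others above all wild-type values. The mean was 2.41 ± 0.776 in the mutant, against 0.873 ± 0.715 in wild type (SD, n = 4 each), a log2 difference of 1.54 (SE 0.425, 95% interval 0.58 to 2.49, adjusted p = 0.212). These values are among the lowest on arrays whose values start at 0, and no background level is known for them. Adjusted p was 0.0909 without mutant replicate 2 and up to 0.565 in the other alternatives. A probe set that the annotation assigns to tbx-32 and tbx-31 together read 4.73 ± 0.456 on mutant arrays, against 4.53 ± 0.128 on wild-type arrays (SD, n = 4 each), a difference of 0.20 (adjusted p = 0.82).

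The other T-box genes among the smallest p were tbx-34 (0.255, adjusted p = 0.519), tbx-7 (-0.095, adjusted p = 0.765) and tbx-11 (0.09, adjusted p = 0.775). The suffix of the tbx-34 probe set (_s_at) means that other transcripts may bind it too, and tbx-34 and tbx-7 lay below the bound for dim probe sets. A further 7 tbx genes differed by -0.04 to 0.11, with adjusted p of 0.83 or above.

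The myogenic and neurogenic bHLH genes showed no difference past the test. The MyoD homologue hlh-1, which acts in body wall muscle, read 6.83, 6.81, 6.67 and 6.82 on mutant arrays, against 6.8, 6.83, 6.79 and 6.51 on wild-type arrays. The groups overlapped, with 1 low array in each, and the difference was 0.05 (95% interval -0.15 to 0.25, adjusted p = 0.913). The Twist homologue hlh-8, read below the bound for dim probe sets, differed by 0.015 (adjusted p = 0.977). The E protein gene hlh-2, whose product pairs with many other bHLH factors, read 9.06, 8.93, 8.32 and 8.63 in the mutant, against 8.76, 8.86, 8.82 and 8.9 in wild type. Mutant values fell on both sides (-0.10, adjusted p = 0.892), while the second hlh-2 probe set gave 0.0075 (adjusted p = 0.986).

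Of the genes related to achaete-scute, a proneural gene of Drosophila, hlh-3 and hlh-14, which act in neuroblasts, differed by -0.003 and -0.065, and hlh-4 by 0.13. The pharyngeal gland factor hlh-6 differed by 0.063. The other genes written into the same group were hlh-12, at 0.045, and hlh-19, at 0 on a dim probe set. Adjusted p lay between 0.657 and 1 for these 6 genes, and their intervals all stayed within -0.5 and 0.5. Of the Olig-type genes, hlh-16 read 6.35, 6.49, 6.6 and 6.62 on mutant arrays, against 6.14, 6.43, 6.25 and 6.48 on wild-type arrays. The 3 highest values were from mutant arrays, but mutant replicate 1 was within the wild-type range (difference 0.19, SE 0.099, adjusted p = 0.585). Its mean over all arrays fell below the dim bound. The difference of hlh-31, read by a probe set with an _x_at suffix, was 0.088 (adjusted p = 0.806). The 5 hlh genes hlh-10, hlh-13, hlh-15, hlh-33 and hlh-34 differed by -0.005 to 0.07, with adjusted p of 0.815 or above. Probe sets of hlh-10, hlh-13 and hlh-15 were dim.

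Several REF-1 family genes are turned on by Notch signalling in the embryo. Of those named hlh-25 to hlh-29, only hlh-26 had its own probe set, and its mean was the same in both groups (difference 0, 95% interval -0.19 to 0.19, adjusted p = 1). That mean of 6.07 lay below the bound for dim probe sets, so whether the transcript was detected is not known. The probe set shared by hlh-27 and hlh-25 read 6.83 ± 0.426 on mutant arrays, against 7.02 ± 0.354 on wild-type arrays (SD, n = 4 each, limma adjusted p = 0.85). That shared by hlh-29 and hlh-28 read 5.16 ± 0.119 on mutant arrays, against 5.27 ± 0.12 on wild-type arrays (SD, n = 4 each, limma adjusted p = 0.771). It lay below the dim bound as well. Of 12 Notch pathway genes none passed, and the median difference was -0.043. The smallest p was that of lag-2, a Notch ligand, with 7.96, 8.17, 8.42 and 8.09 in the mutant, against 7.66, 7.95, 7.72 and 7.89 in wild type. Its mutant values all lay above those of wild type, as for 5.01% of all genes (0.355, adjusted p = 0.284). The receptor glp-1 differed by -0.15 (adjusted p = 0.647).

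In the sdz family 1 gene had an unadjusted p under 0.05 in each direction. The lower one was sdz-33, with 6.43, 6.45, 5.95 and 6.52 on mutant arrays, against 6.84, 6.52, 6.7 and 6.73 on wild-type arrays. Mutant replicate 4 equalled the lowest wild-type value, and the other mutant arrays lay below it. The difference was -0.36 (SE 0.13, 95% interval -0.65 to -0.07, adjusted p = 0.376), and -0.23 without mutant replicate 3. The higher one was sdz-35, a dim probe set with 5.4, 5.06, 5.2 and 5.23 in the mutant, against 4.76, 5.05, 5.22 and 4.68 in wild type. Wild-type replicate 3 fell among the mutant values (0.295, SE 0.128, adjusted p = 0.494).

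The sdz-27 and sdz-8 genes were read well above the dim bound. For sdz-27 the values were 10.54, 10.61, 10.65 and 10.45 in the mutant, against 10.38, 10.41, 10.5 and 10.33 in wild type. The ranges overlapped only through mutant replicate 4 and wild-type replicate 3 (0.158, SE 0.073, adjusted p = 0.529). Those of sdz-8 were 9.34, 9.38, 8.83 and 9.24 in the mutant, against 8.95, 9.01, 8.94 and 9.02 in wild type. Mutant replicate 3 lay below all wild-type arrays and the other mutant arrays above them (0.218, SE 0.117, adjusted p = 0.6). Without mutant replicate 3 the difference was 0.34 (adjusted p = 0.0914).

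The other sdz genes among the smallest p were sdz-25 (0.283), sdz-4 (0.21), sdz-15 (0.20), sdz-3 (-0.105), sdz-10 (-0.108), sdz-34 (-0.128) and sdz-29 (-0.295), with adjusted p from 0.582 to 0.802. Leaving out 1 array moved sdz-25 between 0.093 (without mutant replicate 1) and 0.426 (without mutant replicate 3). Without mutant replicate 4 the difference was 0.068 for sdz-4 and -0.028 for sdz-10, and without mutant replicate 1 it was -0.453 for sdz-29 and -0.058 for sdz-34. The RefSeq table lists sdz-3, sdz-29 and sdz-34 as pseudogenes. Probe sets of these genes and of sdz-10 lay below the dim bound. Those of sdz-25 and sdz-29 carry an _s_at suffix. The remaining 21 sdz genes differed by -0.16 to 0.193, with adjusted p of 0.816 or above.

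Genes that stand upstream of, or beside, the families were examined in lists. None of 16 endomesoderm and Wnt regulators passed, with a median difference of -0.026. The β-catenin gene sys-1 and its partner pop-1, of the TCF class, had the smallest p (-0.175 and 0.15, adjusted p = 0.514 and 0.621). Of 19 bHLH, T-box and GATA genes with other names 0 passed, with the T-box gene sea-1 at -0.263 and the neurogenin homologue ngn-1 at 0.203 (adjusted p = 0.351 and 0.438), and a median of 0.055. All mutant values of ngn-1 lay above those of wild type, as for 5.01% of all genes. In 1 other gene of this list they all lay below, as for 1.87% of all genes.

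Of 14 other early zygotic and embryo patterning genes 0 passed (median 0.108). The FoxA gene pha-4, which specifies the pharynx, read 9.31, 9.25, 9.21 and 9.29 in the mutant, against 8.99, 9, 9.01 and 8.96 in wild type. Its groups did not overlap, with the mutant higher as for 5.01% of all genes, and each spread over at most 0.1 (difference 0.275, SE 0.061, adjusted p = 0.107). The difference of pes-1, a forkhead gene of the early embryo, was -0.165 (adjusted p = 0.472). All its mutant values lay below those of wild type, as for 1.87% of all genes. In 18 oocyte and maternal embryo genes every difference was below 0.1 in size on the deposited scale, with a median of -0.021. After median centring the median was -0.111, and 0 of 18 lay above wild type, beside 32.6% of all genes. Of these 18 genes, zif-1 and mex-3 had the smallest p on the deposited scale (-0.07 and -0.075, adjusted p = 0.849 and 0.866).

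Lists for differentiated tissues and stages were read to describe the content of the cultures. Body wall muscle genes all lay above wild type in the mutant (12 of 12, median 0.215, 0 called), beside 59.4% of all genes. The smallest p were those of unc-27 at 0.21 and unc-54 at 0.51 (adjusted p = 0.438 and 0.46). Of 11 epidermis genes 9 lay above wild type, beside the same 59.4% of all genes (median 0.118, 0 called). Here lin-1 stood at 0.408 and dpy-7 at 0.223 (adjusted p = 0.535 and 0.697). The 6 yolk and adult genes had a median of 0.073 and 0 calls, with vit-2 at 0.13 and vit-5 at 0.068 (adjusted p = 0.635 and 0.799).

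Major sperm protein genes were the only list with calls. Of 23 measured msp genes, 18 rose and 0 fell by the test, beside 0.532% and 0.14% of all genes. The median log2 difference was 1.07. Those that rose were msp-3, msp-19, msp-31, msp-33, msp-36, msp-38, msp-45, msp-49, msp-50, msp-53, msp-55, msp-59, msp-64, msp-65, msp-76, msp-77, msp-78 and msp-152, by 0.975 to 1.23 on the log2 scale (adjusted p from 0.0189 to 0.0477). The array medians of this list stood 0.898, 0.883, 0.838 and 1.63 above the wild-type mean on mutant replicates 1 to 4, and between -0.14 and 0.1 on wild-type arrays. On the same mutant arrays the medians of the 76 genes were 0.04, 0.073, -0.03 and 0.048. All msp probe sets can match several transcripts by their suffix, and 8 of the 76 genes were read by such probe sets.

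Spread between mutant arrays was larger than between wild-type arrays for 54 of the 76 genes, beside 67% of all genes. Their median SD was 0.148 in the mutant group, against 0.114 in the wild-type group, and for all genes 0.151 in the mutant, against 0.111 in wild type (n = 4 each). In the GATA family the mutant SD was the larger for all 8 genes, with a median of 0.214 in the mutant, against 0.094 in wild type. The same held for all 12 intestine, 12 body wall muscle, 11 epidermis and 23 msp genes. Median SDs there were 0.222, 0.373, 0.374 and 0.385 in the mutant, against 0.101, 0.219, 0.125 and 0.123 in wild type. In the other lists it held for part of the genes, such as 5 of 12 Notch pathway genes. The GATA median stood at 0.254, 0.144, -0.056 and -0.086 relative to the wild-type mean on mutant replicates 1 to 4, against -0.018 to 0.011 on wild-type arrays.

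**Figure D3:**
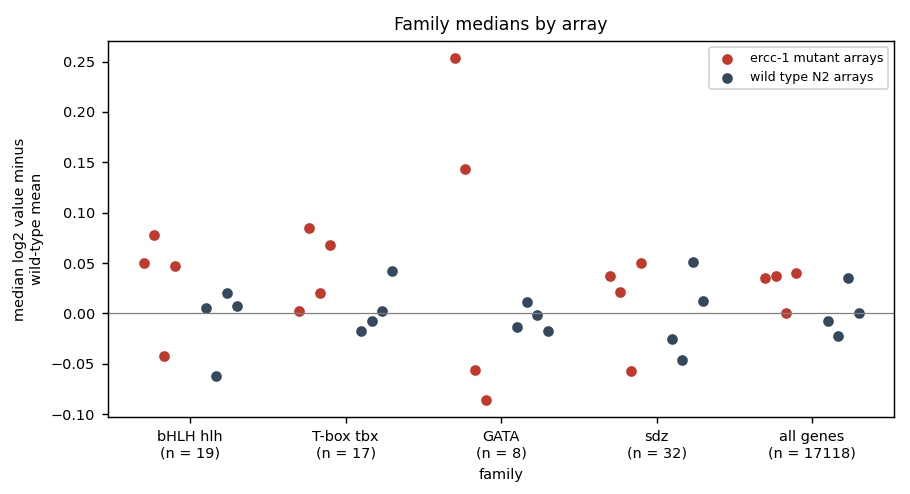
Median log2 value of each family relative to its genes' wild-type means (y axis), 1 point per array, with ercc-1 mutant arrays left of wild type N2 arrays in each family. The GATA genes span -0.086 to 0.254 on the mutant arrays, while the medians of the other families stay between -0.058 and 0.085 there.

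A range over 1 log2 unit among the mutant arrays was found for 5 of the 76 genes, beside 4.32% of all genes. They were tbx-32, elt-3, and the genes hlh-11, hlh-30 and sdz-24, which fall outside the naming rule and were chosen after their values were seen. For hlh-11, the AP-4 homologue, the values were 9.66, 8.99, 8.65 and 8.48 in the mutant, against 8.97, 8.6, 8.58 and 8.66 in wild type. For hlh-30, the TFEB homologue that controls lysosomal and autophagy genes, they were 9.51, 8.79, 8.45 and 8.34, against 8.93, 8.41, 8.45 and 8.48. In both genes replicate 1 was the highest array of its group, in the mutant and in wild type.

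The differences of hlh-11 and hlh-30 were 0.243 and 0.205 (adjusted p = 0.806 and 0.85). Further probe sets gave 0.238 and 0.238 for hlh-11, and 0.238 and 0.063 for hlh-30. For sdz-24 the mutant values were 11.7, 11.37, 10.4 and 10.21, against 11.07, 10.96, 11.22 and 11.01 in wild type. Mutant replicates 1 and 2 lay above every wild-type array and replicates 3 and 4 below every one, and the mean difference was -0.145 (SE 0.299, adjusted p = 0.931).

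Tissue lists varied over the same arrays. The body wall muscle median stood at 0.784, 0.309, -0.13 and 0.239 relative to the wild-type mean on mutant replicates 1 to 4, and at 0.186, -0.004, -0.24 and 0.048 on wild-type replicates 1 to 4. The epidermis median stood at 0.49, 0.285, -0.19 and -0.018 on mutant arrays, and between -0.093 and 0.135 on wild-type arrays. That of the oocyte and maternal list stayed between -0.089 and 0.056 on mutant arrays and between -0.105 and 0.048 on wild-type arrays. The part of tissue content in the spread of elt-3, hlh-11, hlh-30 and sdz-24 was not tested. Of the 76 genes, 10 were highest on mutant replicate 1 and lowest on replicate 4, and 9 the other way round, beside 14.7% and 14.1% of all genes.

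**Figure D4:**
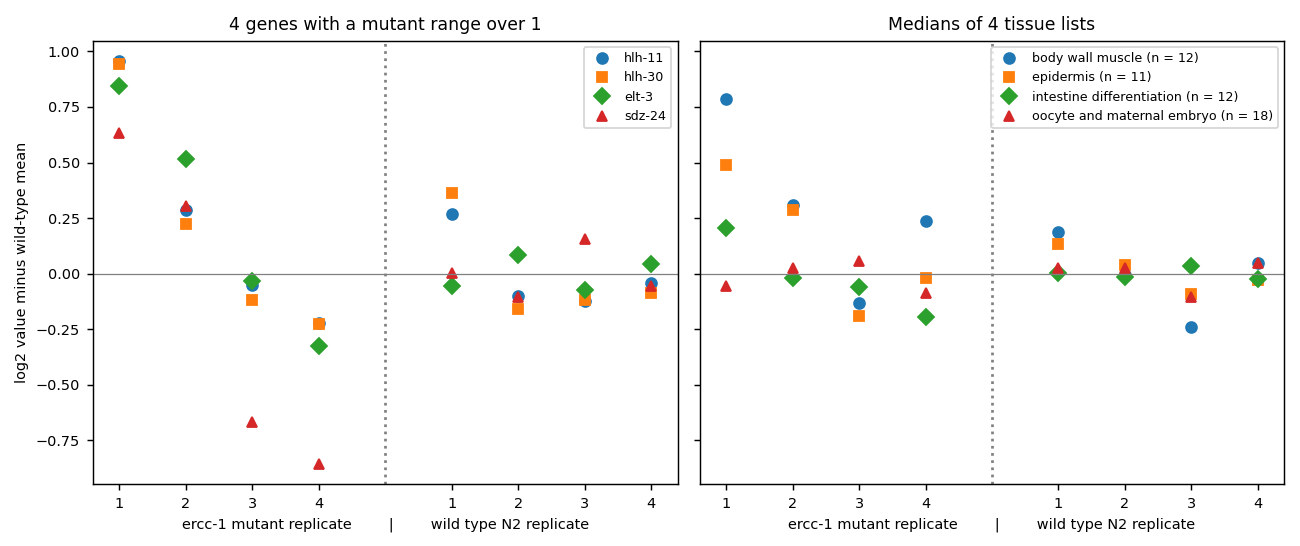
Log2 value minus the wild-type mean (y axis) on each array, for 4 genes with a range over 1 among mutant arrays (left) and for the medians of 4 tissue lists (right), with mutant arrays left of the dotted line and wild-type arrays right of it. Mutant replicate 1 is highest for all 4 genes and for the muscle, epidermis and intestine medians. The wild-type points of the 4 genes span less than their mutant points, which the choice by mutant range favours. Not shown is tbx-32, which also has a mutant range over 1. It is highest on mutant replicate 4 and spans 1.55 in wild type.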

How the data were processed

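Per the labels, biotin-labelled total RNA was read on Affymetrix C. elegans Genome Arrays (1 colour). The authors' deposited table gives a log2 expression value for each probe set on each array. The log base is inferred from their range, 0 to 14.38. Per the submitters' processing notes, Affymetrix Expression Console 1.1 was used. How probes were summarised and arrays normalized is not given in the sources used here.

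Names came from the platform annotation. Chromosomes and gene types came from a RefSeq table (WBcel235), which held 75 of the 76 members and changed 0 symbols. Group differences (4 arrays against 4) were tested two-sided in limma 3.58.1 under R 4.3.3, with lmFit, eBayes and Benjamini-Hochberg adjustment over 22548 probe sets, and called at adjusted p under 0.05. When tested on simulated data for this comparison over 22548 probe sets, the recovery was 49.6% for a log2 change of 0.5, 87.6% for 1 and 98.9% for 2, and 6.64% of calls were false. Lists are described by counts and medians, with no set test. Of the symbols written into the lists, 9 matched no single-gene probe set by that name, and synonyms were not looked up.

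The text names the 24 members with the smallest p, all members of the role groups, and in each other list the called genes and the 2 with the smallest p. Members, lists and tests were chosen with earlier results of these data known. The alternatives changed the normalization (quantile, median centring), the probe sets (no dim ones, none with a suffix _x_at or _s_at, the dimmest of a gene), the variance model or the block, or left out an array. The number of arrays limits the precision. Sequences are not used here.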

Additional observations from a re-analysis of the deposited data

Results flagged for a closer look

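Within a group of 4 arrays, 1 value stood far from the other 3 (by Dixon's gap over range at the 95% level) in 5 of 82 groups of the named genes, while chance gives about 1 in 20. They were elt-7 on mutant replicate 1 (8.75, the others 8.48 to 8.52), sdz-33 on mutant replicate 3 (5.95, the others 6.43 to 6.52) and hlh-1 on mutant replicate 3 (6.67, the others 6.81 to 6.83). The others were hlh-1 on wild-type replicate 4 (6.51, the others 6.79 to 6.83) and tbx-8 on wild-type replicate 4 (7.11, the others 7.05 to 7.06). Without mutant replicate 1, elt-7 differed by 0.263 (adjusted p = 0.211) and its groups still did not overlap. Over all 76 genes there were 8 such values in 152 groups. They included hlh-30 on wild-type replicate 1 (8.93, the others 8.41 to 8.48).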

How the results depend on the processing

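The count of 0 called genes held in every alternative run, while calls among all 17118 genes ranged from 26 to 197, against 115. The number of members with groups that do not overlap was 3 after quantile normalization (hlh-34, elt-7, sdz-33; 6.99% of all genes) and 3 after median centring (hlh-14, elt-7, sdz-33; 9.08% of all genes). It was 1 to 6 when 1 array was left out, with elt-7 in each, beside 8.91% to 12.9% of all genes. Without mutant replicates 1 and 4 together, chosen after seeing the data, it was 10, beside 17% of all genes. Centring turned the family medians to -0.045 (hlh), -0.068 (tbx), -0.031 (GATA) and -0.05 (sdz), and quantile normalization to -0.0042, -0.024, -0.017 and -0.0021. Whether the replicate numbers pair the arrays is not settled here. Correlations of same-numbered deviations were 0.473, 0.014, 0.04 and 0.201, and those between different numbers lay between -0.389 and 0.252. Only mutant replicate 1 matched its own number best. With the replicate block 0 members passed and 93 of all genes, against 115.

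Sign changes occurred in 16 of the 41 genes named by the rule, whose differences were at most 0.1 in size except that of sdz-4 (0.21). After quantile normalization the values were -0.0042 (hlh-1), -0.015 (hlh-8), -0.0022 (hlh-12), -0.058 (tbx-8), -0.024 (tbx-38), -0.0077 (elt-2), -0.075 (end-1) and -0.026 (end-3). After median centring they were -0.04 (hlh-1), -0.028 (hlh-6), -0.075 (hlh-8), -0.045 (hlh-12), -0.0025 (hlh-31), -0.08 (tbx-8), -0.038 (tbx-35), -0.068 (tbx-38), -0.025 (elt-2), -0.073 (end-1) and -0.038 (end-3). Without mutant replicates 1 and 4 together they were -0.0125 (sdz-4), -0.0875 (tbx-8), -0.0575 (tbx-35), -0.0175 (tbx-38), -0.0925 (elt-2) and -0.02 (end-3). The dimmest probe set gave 0.0075 for hlh-2 and 0.073 for elt-6. Leaving out 1 array gave ranges of -0.024 to 0.088 (hlh-1), -0.208 to 0.038 (hlh-2), -0.052 to 0.078 (hlh-3), -0.029 to 0.074 (hlh-8), -0.059 to 0.108 (hlh-12), -0.121 to 0.056 (hlh-14), -0.058 to 0.049 (tbx-8), -0.0033 to 0.126 (tbx-35), -0.061 to 0.079 (tbx-38), -0.064 to 0.149 (elt-2), -0.212 to 0.082 (elt-6), -0.036 to 0.081 (end-1) and -0.053 to 0.11 (end-3). The cause was not tested. Without a change of sign, leaving out 1 array moved hlh-6 (0.0083 to 0.118), hlh-31 (0.033 to 0.131), tbx-9 (-0.159 to -0.066) and tbx-11 (0.05 to 0.127) by over 1.5 times.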
